A study of Mus musculus with 4 samples.

Results

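The genes described here are the C-type lectin genes and their Cd209 relatives, taken as every gene of the count tables whose symbol starts with Clec or Cd209. They were 38 of 32289 genes, 31 named Clec and 7 named Cd209. Of these, 30 had at least 50 UMIs (unique molecular identifiers, each a counted RNA molecule) over all called cells and are described below. The pseudogene Clec2f stood just inside that threshold with 53 UMIs. Just outside were Clec12b and Clec18a with 8 each, Clec14a with 6, Clec2e with 5, Clec2h and Cd209g with 2 each, Clec4f with 1 and Clec3a with 0.

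C-type lectin receptors are membrane proteins with a carbohydrate-recognition fold, and dendritic cells and macrophages use many of them to bind glycans of microbes or of dying cells. Some signal for activation through the adaptor FcRγ and the kinase Syk or through DAP12, and others carry an inhibitory motif that recruits the phosphatases SHP-1 and SHP-2. The Clec2 genes form a separate branch, whose products are ligands of the NKR-P1 receptors of NK cells and innate lymphocytes.

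The cells were single-cell suspensions from mesenteric lymph nodes of 12 reporter mice, 15 days old and not treated, that carried Gm38411-iCre-hCD2 together with R26 tdTomato. Human CD2 marks cells that transcribe the Gm38411 reporter allele, and tdTomato marks cells that have expressed the recombinase at any time. Cells negative for CD3 and B220 and positive for CD11c, MHC-II and tdTomato were sorted into an hCD2- and an hCD2+ fraction. All groups compared here carry the same alleles, so no wild-type animal is among them. Each mouse had its own hashtag antibody, and each fraction was sequenced as 1 droplet library, so that the fraction and the library cannot be told apart.

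The hCD2+ library held 8801 called cells and 178129025 UMIs in them, and the hCD2- library 5603 cells and 150904166 UMIs. Hashtags assigned 7415 and 4907 of these to a single mouse, and after filters 7099 and 4762 cells were kept. Of the barcodes, 20 were called in both libraries. Levels are given as CPM, the UMIs of a gene scaled to a fixed total of UMIs per mouse and group, and groups need at least 10 cells of a mouse. Fold changes come from the edgeR fit, which also applies TMM scaling factors to the totals, and the CPM do not hold these factors. A fold change can therefore differ in size from the ratio of the CPM, and in sign where it is small. The Gm38411 transcript stood at 41.0 CPM ± 5.83 (SD, n = 12 mice) in the hCD2+ fraction and at 1.27 ± 0.392 in the hCD2- fraction. Cells were clustered without the 38 genes, and clusters were named from marker lists that hold none of them. Every name is therefore a likeness: cDC1-like and cDC2-like are the conventional dendritic cell types, and pDC-like are plasmacytoid dendritic cells. CCR7 migratory DC-like are mature dendritic cells, and ILC3 or LTi-like are type 3 innate lymphoid cells. Prdm16 or Aire DC-like cells, 979 in the hCD2+ and 15 in the hCD2- fraction, carry the list headed by Prdm16 and Aire. T cell-like cells made up 5.45% of kept cells in the hCD2+ and 21.7% in the hCD2- fraction, although the sort was for cells negative for CD3.

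All 38 genes have a place in the mouse annotation (GENCODE, GRCm38), with 23 on chromosome 6, 10 on chromosome 8 and 5 elsewhere. The 9 Clec4 genes of chromosome 6 lie within 368 kb (chr6:122921848-123289870). Another 11, Clec2, Clec12, Clec1 and Clec9a, lie within 790 kb (chr6:128662385-129452000). The 7 Cd209 genes and Clec4g lie within 431 kb of chromosome 8 (chr8:3707064-4137707). Some of these genes overlap or resemble each other. The Clec1b model (chr6:129397297-129409335) runs into Clec9a (chr6:129408862-129424763) on the same strand, and 43 stretches of 50 bases near their transcript ends are shared. Of the 50-base stretches at the ends of Clec4b1, 12.9% also occur in Clec4a2, and 6.37% of those of Clec10a occur in Mgl2. Counts of Clec1b, Clec4b1 and Clec10a are uncertain to that extent.

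Promoters of the genes on which the results turn are shown to set the cDC1 pair Clec9a and Clec12a beside the Clec4a genes and Cd209d. RefSeq (GRCm38.p6) gave a window from 250 bases before to 50 after the start for 24 of the 30 genes, and held none for Clec10a, Clec1a, Clec2f, Clec3b, Clec4a4 and Clec4n. The windows below are those of Clec9a (chr6:129408612-129408911, plus strand), Clec12a (chr6:129349994-129350293, plus), Clec4a1 (chr6:122921598-122921897, plus), Clec4a3 (chr6:122952265-122952564, plus), Clec4a2 (chr6:123122440-123122739, plus) and Cd209d (chr8:3878450-3878749, minus). Capitals mark a match, on either strand, to GGAA followed by any 2 bases and GAAA (an ETS and IRF composite), to GAAA followed by any 2 bases and GAAA (an IRF response element) or to TGANTCA (an AP-1 site).
Clec9a: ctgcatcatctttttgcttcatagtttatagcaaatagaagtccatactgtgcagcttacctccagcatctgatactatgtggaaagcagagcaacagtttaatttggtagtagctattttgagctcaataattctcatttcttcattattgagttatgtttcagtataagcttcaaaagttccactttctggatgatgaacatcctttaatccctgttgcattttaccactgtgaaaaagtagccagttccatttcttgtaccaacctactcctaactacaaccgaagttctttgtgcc
Clec12a: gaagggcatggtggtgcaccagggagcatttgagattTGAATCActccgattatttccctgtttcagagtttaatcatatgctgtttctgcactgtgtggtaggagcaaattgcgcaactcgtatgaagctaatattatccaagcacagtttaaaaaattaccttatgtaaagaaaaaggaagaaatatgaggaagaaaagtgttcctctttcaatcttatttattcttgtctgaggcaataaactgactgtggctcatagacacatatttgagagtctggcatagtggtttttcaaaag
Clec4a1: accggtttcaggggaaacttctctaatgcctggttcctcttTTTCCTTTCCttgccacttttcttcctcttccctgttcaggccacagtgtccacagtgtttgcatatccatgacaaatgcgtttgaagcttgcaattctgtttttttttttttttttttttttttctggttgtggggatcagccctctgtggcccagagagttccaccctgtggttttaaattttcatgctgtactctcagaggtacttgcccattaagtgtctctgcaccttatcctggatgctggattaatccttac
Clec4a3: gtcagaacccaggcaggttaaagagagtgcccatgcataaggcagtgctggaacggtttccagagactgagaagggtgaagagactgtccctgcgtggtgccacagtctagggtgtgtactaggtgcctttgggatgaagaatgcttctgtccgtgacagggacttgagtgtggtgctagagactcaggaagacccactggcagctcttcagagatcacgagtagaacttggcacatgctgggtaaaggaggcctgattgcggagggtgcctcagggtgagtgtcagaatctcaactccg
Clec4a2: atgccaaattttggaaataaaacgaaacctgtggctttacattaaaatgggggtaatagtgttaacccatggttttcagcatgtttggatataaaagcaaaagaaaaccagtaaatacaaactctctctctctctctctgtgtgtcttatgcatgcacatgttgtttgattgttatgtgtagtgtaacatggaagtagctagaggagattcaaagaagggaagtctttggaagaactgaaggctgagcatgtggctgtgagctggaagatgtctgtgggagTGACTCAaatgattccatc
Cd209d: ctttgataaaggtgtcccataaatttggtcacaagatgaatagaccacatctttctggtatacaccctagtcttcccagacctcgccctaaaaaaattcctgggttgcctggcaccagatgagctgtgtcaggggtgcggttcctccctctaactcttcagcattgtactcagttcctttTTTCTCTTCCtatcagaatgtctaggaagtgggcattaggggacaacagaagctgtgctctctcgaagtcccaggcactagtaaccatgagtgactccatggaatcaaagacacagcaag

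The RefSeq start of Clec12a lies 7553 bases and that of Clec4a2 16262 bases inside the GENCODE gene model, so these windows belong to a downstream start. The ETS and IRF composite was in 5 of the 24 windows (Cd209a, Cd209d, Cd209e, Clec2i and Clec4a1) and in 2.72% of all 32851 promoter windows. The IRF response element was in 3 (Clec2d, Clec4b1 and Clec4d) and in 3.44% of all. TGANTCA was in 4 (Cd209f, Clec12a, Clec2g and Clec4a2) and in 7.81% of all. The Clec9a and Clec4a3 windows held none of the 3. TATAAA was in 8 windows, Clec9a, Cd209a and Clec4a2 among them, against 13.6% of all, and GAGGAAGT, a PU.1 site, was in none against 3.20%. These are letter matches only.

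Across the 14 class-and-fraction groups with at least 3 mice, the genes fell into a few broad ones and many narrow ones. Clec2d and Clec16a were above 10 CPM in all 14, Clec2i in 12 and Clec12a in 8. Clec9a, Clec4a2, Clec4b1, Clec4n and Cd209d were above 10 CPM in 3 each, and 11 members were above it in none. The most members above 10 CPM were in cDC2-like cells, 14 of 30 in the hCD2- fraction, followed by cDC2-like and monocyte or macrophage-like cells of the hCD2+ fraction with 13 each. Prdm16 or Aire DC-like cells had 9, pDC-like cells 8, cDC1-like cells 5 in either fraction and CCR7 migratory DC-like cells 4. ILC3 or LTi-like, NK or ILC1-like and T cell-like cells had 3, namely Clec2d, Clec2i and Clec16a.

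**Figure D1:**
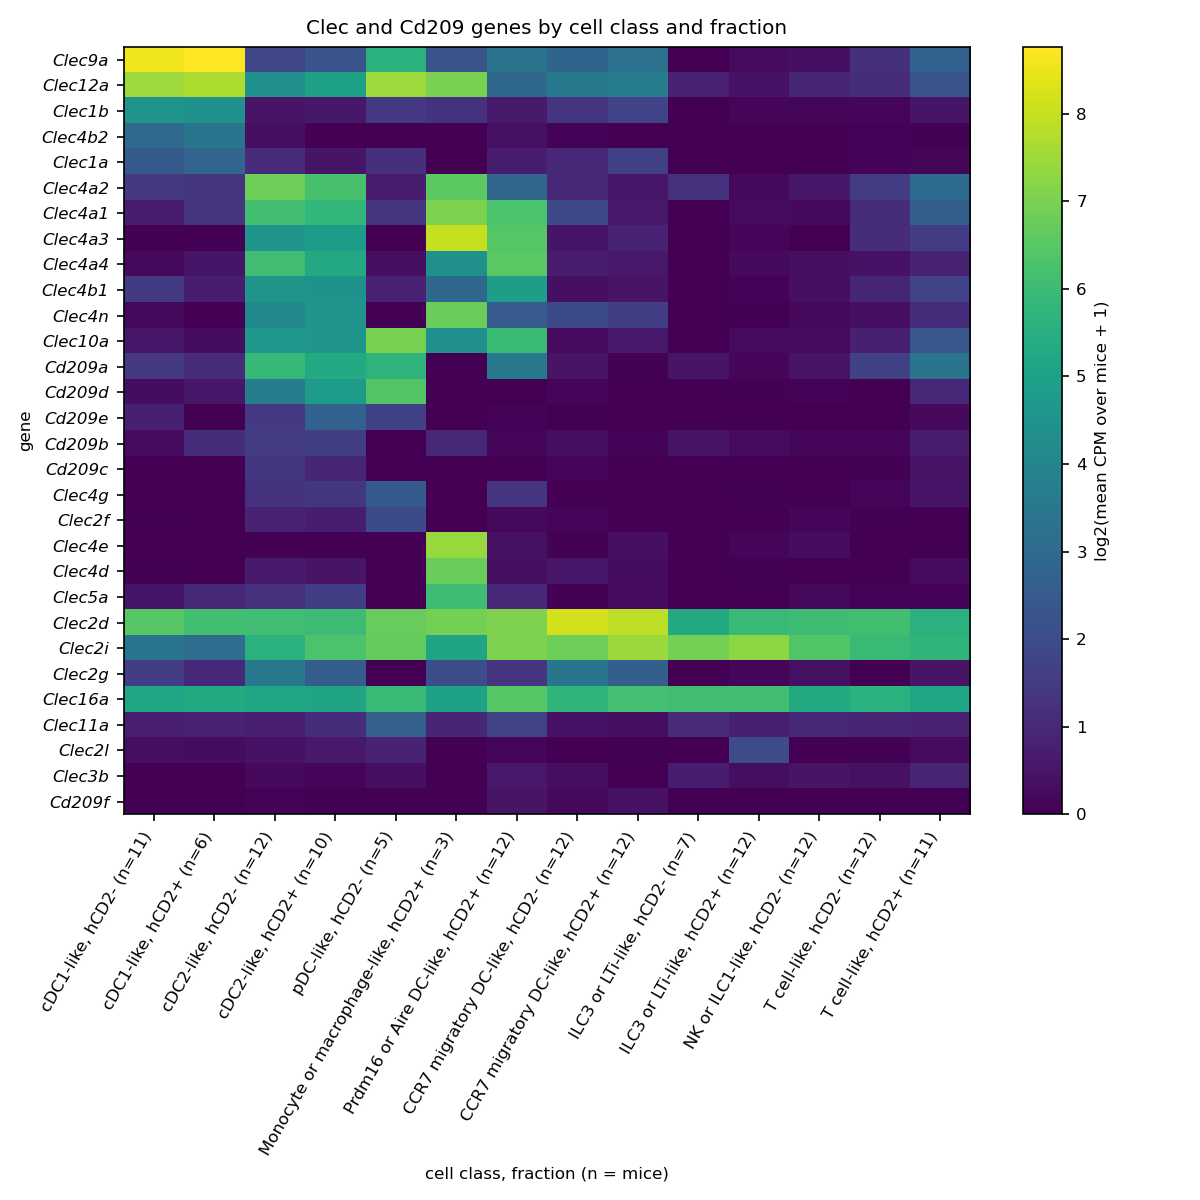
Mean level of the 30 genes (rows) in 14 groups of cells (columns, with the number of mice), as log2(mean CPM over mice + 1). Clec2d and Clec16a are present in every column, Clec9a peaks in cDC1-like cells, the Clec4a genes in cDC2-like, monocyte or macrophage-like and Prdm16 or Aire DC-like cells, and Clec4e and Clec4d in the monocyte or macrophage-like column.

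Clec9a (DNGR-1), a receptor for exposed actin of dead cells, was a gene of cDC1-like cells. In cDC1-like cells of the hCD2- fraction its lowest, median and highest level over 11 mice were 323, 357 and 522 CPM. In cDC2-like cells of 12 mice they were 0.564, 1.92 and 10.6 CPM. No cDC1-like sample overlapped a cDC2-like one, and the log2 fold change was 7.03 ± 0.22 (SE), higher in 11 of 11 mice (edgeR quasi-likelihood test, Benjamini-Hochberg adjusted p = 3.39e-20). With every cell thinned to 5000 UMIs, 81.6% of 261 cDC1-like cells held a Clec9a UMI (95% Wilson interval 76.5 to 85.8), against 98.9% before thinning. The same share in 1859 ILC3 or LTi-like cells of the hCD2+ fraction, which should lack the gene, was 0.0538% (0.0095 to 0.304), against 0.372% unthinned. Median depths of those classes were 42456.5 and 16439 UMIs per cell. Droplets of 10 to 100 UMIs held Clec9a at 41.1 CPM in the hCD2- and 15.9 CPM in the hCD2+ library, but ILC3 or LTi-like cells of the hCD2+ library stood at 0.202 CPM ± 0.227 (SD, n = 12). Of all Clec9a UMIs in kept cells, 72.6% lay in cluster 13, which is cDC1-like, and 12.9% in cluster 25, which stayed unnamed and is in no comparison.

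Clec12a (MICL), an inhibitory receptor that binds uric acid crystals, followed Clec9a in cDC1-like cells but also marked other classes. Its lowest, median and highest level was 104, 200 and 212 CPM in cDC1-like cells of the hCD2- fraction and 11.4, 19.1 and 36.1 CPM in cDC2-like cells. The ranges did not overlap and the log2 fold change was 3.19 ± 0.13 (adjusted p = 1.59e-17). Clec1b (CLEC-2), known as the podoplanin receptor of platelets, stood at 22.4 CPM ± 7.65 in cDC1-like and 0.366 ± 0.505 in cDC2-like cells (log2 fold change 5.71 ± 0.32, adjusted p = 1.06e-14). Its model overlaps that of Clec9a, as described above. Clec4b2 and Clec1a were low members with their highest level in the same class among those with at least 3 mice, at 7.0 CPM ± 3.73 and 4.56 ± 2.36 in cDC1-like cells of the hCD2- fraction.

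Over the comparison of cDC1-like with cDC2-like cells, 13 of the 30 members were tested, 4 were higher and 8 lower. In the same fit 58.2% of 9058 genes passed the threshold of an adjusted p of 0.05, 29.4% higher and 28.8% lower. The median log2 fold change was -3.58 over the members tested and 0.01 over all genes. A member that reached the expression filter only through the class where it is high had to differ, so these counts describe the genes and support nothing further. The same limit applies to the counts and medians of members in the comparisons below. Besides the 3 above, Clec2d was higher by 0.46 ± 0.15 (adjusted p = 0.0116), a call lost with thinned cells (0.31, adjusted p = 0.148). The lower members were Clec4a1, Clec4a2, Clec4a3, Clec4a4, Clec4b1, Clec4n, Cd209a and Clec2i. All 3 comparisons against cDC2-like cells of the hCD2- fraction share those cDC2-like samples.

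Clec4a1, Clec4a2, Clec4a3, Clec4a4, Clec4b1 and Clec4n were higher in cDC2-like than in cDC1-like cells. Clec4a2 (DCIR1), an inhibitory receptor, had a lowest, median and highest level of 95.4, 113 and 136 CPM in cDC2-like cells of the hCD2- fraction, and of 0, 1.45 and 4.65 CPM in cDC1-like cells. The 2 classes lay far apart, with a log2 fold change of -5.77 ± 0.20 for cDC1-like against cDC2-like (adjusted p = 2.49e-19). Clec4a4 (DCIR2), the antigen of the antibody 33D1, stood at 37.9, 69.9 and 87.2 CPM in cDC2-like cells. Only 2 of its UMIs were counted in cDC1-like cells, a ratio of pooled CPM of 0.00257 (95% interval 0.000311 to 0.0093, counting error only). Clec4a1 at 67.6 CPM ± 11.0, Clec4a3 at 22.6 ± 7.52 and Clec4b1 (DCAR) at 22.4 ± 5.45 were lower than Clec4a2 in these cells in this count of transcript ends. Clec4n (Dectin-2), an FcRγ-coupled receptor for fungal mannans, was uneven over mice at 16.9 ± 9.63 CPM with a range of 3.11 to 36.7. After thinning, 38.5% of 889 cDC2-like cells held a Clec4a2 UMI (35.3 to 41.7), against 71.0% before and against 0.108% (0.0295 to 0.391) of ILC3 or LTi-like cells of the hCD2+ fraction. Droplets held Clec4a2 at 41.9 CPM in the hCD2- and 7.45 CPM in the hCD2+ library, so these 2 shares come from libraries with unlike droplet levels.

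Within the cDC2-like class, clusters 15 and 19 of the hCD2- fraction differed in 2 of 15 members tested, beside 16.1% of 10217 genes (6.45% higher in cluster 15 and 9.7% lower). Both were higher in cluster 15. Clec4a4 was at 70.5 CPM ± 14.1 (SD, n = 12) in cluster 15 and at 25.1 and 20.6 CPM in the 2 mice of cluster 19 (log2 fold change 1.58 ± 0.33, adjusted p = 0.00227). Clec2d stood at 70.0 ± 10.4 against 39.7 and 33.7 CPM (0.88 ± 0.22, adjusted p = 0.0104). Neither gene's ranges overlapped. Over the members the median log2 fold change was 0.27, and over all genes 0.02. Leaving out mouse 12, which leaves cluster 19 with 1 mouse, left 0 members past the threshold, and with the mouse as a block 1 member passed it. With cells thinned to 5000 UMIs neither Clec4a4 (1.29, adjusted p = 0.374) nor Clec2d (0.30, adjusted p = 0.874) passed, and the median depths of clusters 15 and 19 were 27257.5 and 50621 UMIs per cell. The leading genes of cluster 19 were mostly those of dividing cells, such as Nusap1, Cenpf, Kif11 and histone genes, and the part of depth and cell division in the result was not tested.

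Cd209a and Cd209d, relatives of human DC-SIGN, and Clec10a (MGL1), a receptor for galactose and N-acetylgalactosamine, each had a mean above 10 CPM in cDC2-like and pDC-like cells of the hCD2- fraction. Cd209a had a lowest, median and highest level of 25.0, 50.5 and 119 CPM in cDC2-like cells of the hCD2- fraction. The 5 mice with pDC-like cells had 97.8, 15.5, 65.4, 66.9 and 11.4 CPM, and these ranges overlapped (log2 fold change -0.28 ± 0.40, adjusted p = 0.587). Cd209d was at 133, 73.7, 65.4, 109 and 38.5 CPM in the pDC-like samples and at 0.584, 5.78 and 34.9 CPM (lowest, median, highest) in cDC2-like ones. The 2 groups did not overlap, and the log2 fold change was 2.84 ± 0.60 (adjusted p = 0.000367).

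Clec10a stood at 67.9, 147, 139, 134 and 134 CPM in the pDC-like samples and at 5.32, 16.4 and 72.0 CPM (lowest, median, highest) in cDC2-like ones. The lowest pDC-like sample lay inside the cDC2-like range, and the log2 fold change was 2.27 ± 0.47 (adjusted p = 0.000307). Clec12a was at 215, 221, 115, 143 and 187 CPM in pDC-like cells (3.10 ± 0.19 against cDC2-like, adjusted p = 3.01e-12). Clec9a was at 32.6, 31.0, 92.3, 30.4 and 51.4 CPM (3.98 ± 0.44, adjusted p = 7.26e-08), above every cDC2-like sample and below every cDC1-like one. Clec2g had no UMI in the 5 pDC-like samples, which puts it at least 6.93-fold lower than in cDC2-like cells (floor of 3 counts over the group).

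In pDC-like against cDC2-like cells 7 of 15 members tested were higher and 7 lower, beside 52.4% of 9998 genes past the threshold (23.7% higher and 28.6% lower). The median log2 fold change was -0.28 over the members and -0.06 over all genes. With at least 20 cells per mouse, Cd209d did not pass (1.79, adjusted p = 0.308) and Cd209a was lower (-2.30, adjusted p = 0.0456). The remaining higher members were Clec2i (1.11 ± 0.19), Clec2d (0.70 ± 0.16) and Clec16a (0.89 ± 0.19), and Clec2d did not pass with thinned cells (0.48, adjusted p = 0.206). Clec4a3 and Clec4n had no UMI in pDC-like cells and were at least 14.8-fold and 10.9-fold lower there. With at least 20 cells per mouse Clec4n did not pass (adjusted p = 0.0875). Clec4a1, Clec4a2, Clec4a4 and Clec4b1 had 1 or 2 UMIs each. The pDC-like samples also held all 8 T cell markers above 10 CPM, summing to 514 to 981 CPM, against 35.1 to 183 CPM in cDC2-like samples, and the part of these cells in the result was not tested. Their cDC2 list summed to 325 to 475 CPM, against 1830 to 2678 CPM in cDC2-like samples.

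**Figure D2:**
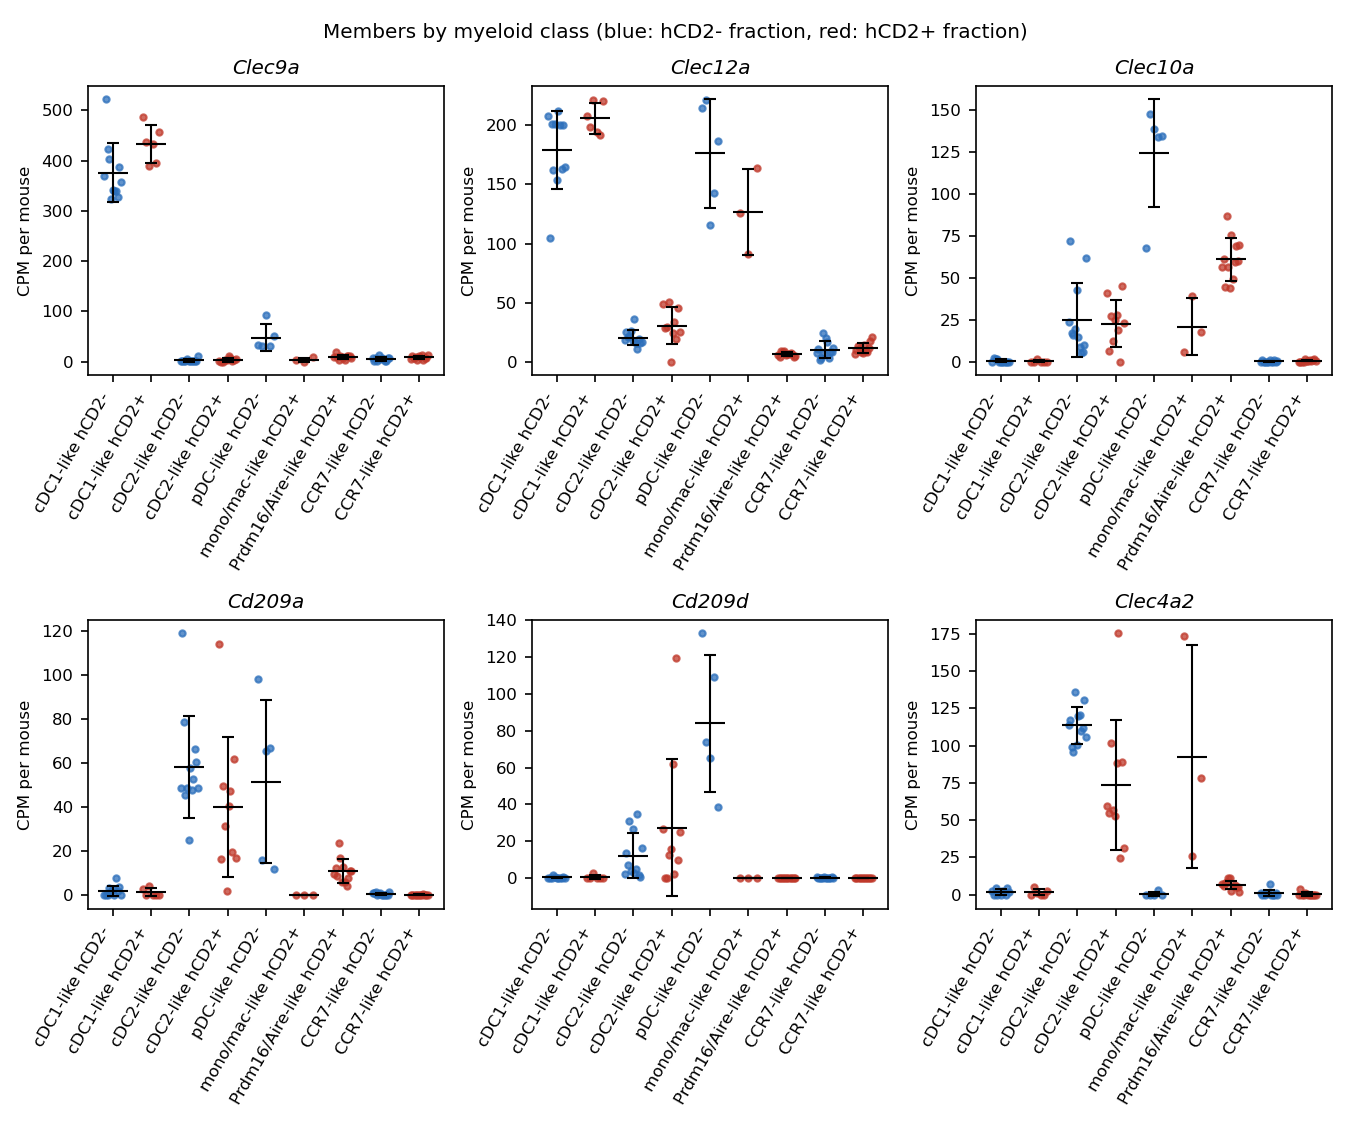
CPM per mouse of 6 members in 9 class-and-fraction groups, with blue points for the hCD2- and red points for the hCD2+ fraction, and bars for the mean ± SD. Clec9a separates cDC1-like cells, Clec12a is high in cDC1-like, pDC-like and monocyte or macrophage-like cells, and Clec4a2 and Cd209a are near 0 in cDC1-like and CCR7 migratory DC-like cells.

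The other Cd209 genes were rare. Cd209b reached 1.85 CPM ± 2.37 and Cd209c 1.66 ± 0.953 in cDC2-like cells of the hCD2- fraction. Among classes with at least 3 mice Cd209e was highest in cDC2-like cells of the hCD2+ fraction, at 5.75 ± 17.7, where mouse 10 stood at 56.0 CPM with 23 of the 24 UMIs and the median of 10 mice was 0. Much of the family lay outside the named classes. Cluster 16 was left unnamed. Of the T cell list 6 of 8 markers were elevated in it, the cDC2 list summed to 1451 to 2182 CPM in its hCD2- samples, and its leading genes were Retnla, Fcrls, Mrc1 and Fn1, which are known from macrophages. It held 33.2% of the kept Cd209a UMIs, 37.8% of those of Cd209d and 55.3% of those of Cd209c. Its pooled Cd209a level was 127 CPM in the hCD2- and 167 CPM in the hCD2+ fraction. Cd209f, with 100 UMIs in all, had 68 of them in 1 cell barcode that carried several hashtags.

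In monocyte or macrophage-like cells the members that stood out included receptors known to sense fungal and mycobacterial glycolipids. Only 3 hCD2+ samples held at least 10 such cells. Clec4e (Mincle), a receptor for trehalose dimycolate, stood at 154, 305 and 53.1 CPM in them and had no UMI in the 10 cDC2-like samples of that fraction, which makes it at least 252-fold higher. Clec4d (MCL), its partner, was at 159, 143 and 25.1 CPM against 2 UMIs in all cDC2-like samples, a ratio of pooled CPM of 263 (95% interval 70.8 to 2201). Clec5a (MDL-1), a DAP12-coupled receptor, was even over mice at 69.9, 65.0 and 57.5 CPM, against 2.12 ± 1.38 in cDC2-like cells (log2 fold change 4.87 ± 0.38, adjusted p = 2.00e-07). No sample of the 2 classes overlapped in these 3 genes.

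Clec4a3 was at 313, 260 and 195 CPM in the monocyte or macrophage-like samples and at 27.1 ± 19.5 in cDC2-like ones (3.36 ± 0.39, adjusted p = 9.58e-06). Clec4n stood at 109, 143 and 70.8 CPM (2.47 ± 0.62, adjusted p = 0.00723), Clec12a at 126, 91.0 and 164 CPM (2.14 ± 0.43, adjusted p = 0.00157) and Clec4a1 at 165, 97.5 and 124 CPM (1.33 ± 0.27, adjusted p = 0.00176). These lay above every cDC2-like sample. Clec4a2 varied from 26 to 173 CPM and did not pass (0.49 ± 0.49, adjusted p = 0.506). Cd209a had no UMI in the 3 samples and was at least 17.1-fold lower (adjusted p = 0.0115). Without mouse 12, Cd209a (adjusted p = 0.0727) and Clec2d (adjusted p = 0.162) did not pass, and with the mouse as a block Clec4a1 (adjusted p = 0.0945) and Clec2d (adjusted p = 0.113) did not. Cd209a did not pass with at least 20 cells per mouse (adjusted p = 0.0594), nor Clec2d with thinned cells (adjusted p = 0.15).

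In all, 8 of 16 members tested were higher and 1 lower, beside 27.1% of 8541 genes (13.8% higher and 13.3% lower), with a median log2 fold change of 0.77 over the members and -0.08 over all genes. Much of this set was left out with cells that hashtags assigned to several mice or to none, or that failed the gene or mitochondrial filter: 47.7% of Clec4e UMIs, 46.5% of those of Clec4d and 39.7% of those of Clec5a, against 10.6% for Clec9a. All 11 monocyte or macrophage markers were above 10 CPM in the 3 samples, with a sum of 7854 to 13285 CPM, against 89.2 to 965 CPM in cDC2-like samples.

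Of the Clec2 ligands, Clec2d and Clec2i were broad, while Clec2g, Clec2l and Clec2f were low. Clec2d (Clr-b), the ligand of the inhibitory receptor NKR-P1B, was highest in CCR7 migratory DC-like cells among the classes with at least 3 mice. In the hCD2- fraction its lowest, median and highest level was 248, 289 and 315 CPM there and 55.7, 63.5 and 79.7 CPM in cDC2-like cells, with no overlap (log2 fold change 2.50 ± 0.06, higher in 12 of 12 mice, adjusted p = 1.03e-23). Clec2i (Clr-g), the ligand of NKR-P1F, was at 92.3, 112 and 147 CPM against 31.1, 48.3 and 65.2 CPM, again with no overlap (1.65 ± 0.11, adjusted p = 1.76e-14). Clec2g was at 9.71 ± 2.65 and 10.8 ± 3.97 CPM and did not pass (0.17 ± 0.19, adjusted p = 0.404). The sign of this fold change is that after TMM scaling and is opposite to the order of the CPM. Clec2i was lowest in cDC1-like cells, at 9.59 CPM ± 4.72, where it was lower than in cDC2-like cells by a log2 fold change of -2.12 ± 0.19 (adjusted p = 1.66e-10).

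Clec2i was also a gene of lymphoid cells. ILC3 or LTi-like cells of the hCD2+ fraction had a lowest, median and highest level of 134, 153 and 177 CPM. Cluster 2, of 1159 hCD2+ and 100 hCD2- cells, had 10 of 10 ILC3 or LTi markers elevated. It was left unnamed because its leading genes included Sdc1, a marker of the plasma cell list. This cluster held the most Clec2i UMIs of any cluster, 17.6%, at a pooled 233 CPM in the hCD2+ fraction. Clec2l, a family member known from brain, had 53.3% of its 167 kept UMIs in cluster 0, an ILC3 or LTi-like cluster. Over the whole ILC3 or LTi-like class it stood at 3.05 CPM ± 1.46 (12 mice) in the hCD2+ fraction and had 0 UMIs in the 7 samples of the hCD2- fraction, which allows up to 1.60 CPM. Clec2f, a transcribed pseudogene, was at most at 2.93 ± 3.22 CPM in these classes, in pDC-like cells.

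In CCR7 migratory DC-like against cDC2-like cells 3 members were higher and 8 lower of 13 tested, beside 78.6% of 9472 genes past the threshold (37.2% higher and 41.4% lower). The median log2 fold change was -4.18 over the members and -0.05 over all genes. The remaining higher member was Clec16a (0.93 ± 0.10), an endolysosomal protein that is not a classical lectin receptor despite its name. The lower ones were Clec10a (-6.62 ± 0.71), Clec4a2 (-6.48 ± 0.25), Cd209a (-6.39 ± 0.33), Clec4b1, Clec4a4, Clec4a3, Clec4a1 and Clec4n. Clec4a4 fell from 66.8 CPM ± 13.2 in cDC2-like to 0.575 ± 0.638 in CCR7 migratory DC-like cells.

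The CCR7 migratory DC-like class held 2 lectin patterns in the hCD2- fraction. Cluster 8 had Clec9a at 40.4, 51.6, 65.4, 24.9 and 31.9 CPM in its 5 mice, while in cluster 9 the lowest, median and highest of 12 mice were 0, 0.475 and 2.44 CPM. Cluster 8 also had Clec12a at 28.0, 88.7, 74.7, 67.8 and 46.8 CPM, against 0, 2.10 and 7.22 CPM in cluster 9. Droplets of this library held Clec9a at 41.1 and Clec12a at 35.5 CPM, within the ranges of the cluster 8 samples and above those of cluster 9. The part of the droplet levels was not tested. In both genes the clusters did not overlap, with log2 fold changes of -5.84 ± 0.37 and -4.87 ± 0.34 for cluster 9 against cluster 8 (adjusted p = 4.17e-11 and 2.42e-10). Clec2g went the other way, at 11.7 CPM ± 3.15 in cluster 9 and with a single UMI in cluster 8, a ratio of pooled CPM of 30.8 (95% interval 5.48 to 1222).

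Clec2d and Clec2i, with overlapping ranges, were lower in cluster 9 than in cluster 8 by log2 fold changes of -0.58 ± 0.10 and -0.58 ± 0.12 (adjusted p = 6.93e-05 and 0.000383). That made 1 member higher and 4 lower of 6 tested, beside 40.8% of 8440 genes (21% higher and 19.8% lower), with medians of -0.58 over the members and 0.03 over all genes. The cDC1 marker list summed to 972 to 1165 CPM in cluster 8 and 380 to 564 CPM in cluster 9. The Prdm16 or Aire DC list summed to 244 to 992 CPM in cluster 8 and 16.7 to 91.1 CPM in cluster 9. The part of either in the result was not tested.

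Prdm16 or Aire DC-like cells of the hCD2+ fraction carried a Clec4a pattern that differed from that of cDC2-like cells in the same library. Clec4a3 had a lowest, median and highest level of 72.6, 84.8 and 107 CPM in 12 mice and of 7.31, 19.2 and 69.8 CPM in the 10 cDC2-like samples, with no overlap (log2 fold change 1.87 ± 0.21, adjusted p = 1.58e-08). Clec4a4 was at 76.3, 89.7 and 117 CPM against 17.9, 37.5 and 83.2 CPM (1.45 ± 0.15, adjusted p = 4.96e-09), and only 1 cDC2-like sample reached into its range. Clec4a2 was the reverse, at 2.03, 6.06 and 10.8 CPM against 24.4, 58.1 and 175 CPM, with no overlap (-3.35 ± 0.28, adjusted p = 1.30e-10). Over the class as a whole, the inhibitory receptor genes Clec4a2 and Clec4a4 thus differed in opposite directions. Its clusters are taken singly below.

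Clec10a stood at 43.9, 59.5 and 87.0 CPM (lowest, median, highest) in Prdm16 or Aire DC-like cells and at 0, 23.6 and 45.1 CPM in cDC2-like cells (1.44 ± 0.23, adjusted p = 6.84e-06). With cells thinned to 5000 UMIs Clec10a did not pass (0.48, adjusted p = 0.274). Cd209a was lower, at 3.92, 10.1 and 23.6 CPM against 1.75, 35.7 and 114 CPM (-1.83 ± 0.36, adjusted p = 7.94e-05), with overlapping ranges. Cd209d had 0 UMIs in 979 Prdm16 or Aire DC-like cells. Of 12 members tested 9 were higher and 3 lower, beside 62.2% of 9626 genes (32.5% higher and 29.7% lower), with a median log2 fold change of 1.09 over the members and 0.01 over all genes. The other higher members were Clec16a (1.49 ± 0.12), Clec9a (1.32 ± 0.39, at 9.45 CPM ± 4.16, below the 15.9 CPM of droplets in that library), Clec2d (1.16 ± 0.15), Clec2i (1.01 ± 0.22), Clec4b1 and Clec4a1, and Clec12a was the remaining lower one (-2.12 ± 0.28). Clec4a1 did not pass with thinned cells (0.45, adjusted p = 0.111) or with at least 20 cells per mouse (0.27, adjusted p = 0.0749). The cDC2-like samples of this fraction themselves held the Prdm16 or Aire DC list at 14.9 to 1348 CPM in sum, with 5 of 10 markers above 10 CPM, and T cell markers at 17.0 to 790 CPM. The part of either in the result was not tested.

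Against CCR7 migratory DC-like cells of the same library the separation was wider. Clec4a4 was at 0, 0 and 1.91 CPM (lowest, median, highest) there, and the log2 fold change was 7.22 ± 0.22 (adjusted p = 1.11e-21). Clec4a1 (6.66 ± 0.18), Clec4a3 (6.49 ± 0.22), Clec10a (6.33 ± 0.23) and Clec4b1 (5.72 ± 0.23) were also higher, each in 12 of 12 mice. Clec2d (-1.11 ± 0.08), Clec12a (-1.08 ± 0.19) and Clec2i (-0.62 ± 0.09) were lower. These were 5 and 3 of 10 members tested, beside 73.8% of 9626 genes (38.5% higher and 35.3% lower), with medians of 2.89 over the members and 0.03 over all genes. This comparison and those with cDC2-like and ILC3 or LTi-like cells share the Prdm16 or Aire DC-like samples.

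Against ILC3 or LTi-like cells, the other large hCD2+ population, 7 of 8 members tested were higher and 0 lower, beside 80.4% of 10367 genes (40.3% higher and 40.2% lower). The median was 8.17 over the members and -0.01 over all genes. Clec4a4 (9.19 ± 0.19), Clec4a3 (9.11 ± 0.16), Clec4a1 (8.32 ± 0.18), Clec4b1 and Clec10a (8.16 ± 0.24) had 2 to 7 UMIs in all ILC3 or LTi-like samples. These genes reached the expression filter only through the Prdm16 or Aire DC-like class and had to be higher. The count and the median therefore describe the genes and support nothing further. Clec2d (1.37 ± 0.09) and Clec16a (0.55 ± 0.05) were higher as well. Clec2i did not pass, at -0.01 ± 0.06 after TMM scaling (adjusted p = 0.922), with 134 CPM ± 16.4 against 155 ± 14 before it. With cluster 2 counted as ILC3 or LTi-like, 9 of 10 members tested were higher and 1 lower, beside 81.9% of 10717 genes (40.6% higher and 41.3% lower). The lower one was Clec2i, with a log2 fold change of -0.28 ± 0.05 (adjusted p = 1.57e-05), so its result depended on whether cluster 2 was counted.

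The Clec4a pattern belonged to cluster 5 of the class and not to cluster 4. Cluster 5, of 657 hCD2+ cells, had Prdm16 at 3323 CPM ± 373 and Aire at 18.2 ± 11.0, and cluster 4, of 322 cells, had 1798 ± 170 and 616 ± 130 (SD, n = 12 mice each). They are called Prdm16-high and Aire-high below. Clec4a1 had a lowest, median and highest level of 89.3, 102 and 145 CPM in Prdm16-high cells and of 0, 0 and 10.3 CPM in Aire-high cells. The 12 mice of each cluster did not overlap, and the log2 fold change was 5.93 ± 0.28 (adjusted p = 5.65e-18). Clec4a3 was at 96.7, 120 and 140 CPM against 0, 1.97 and 10.3 CPM (5.28 ± 0.22, adjusted p = 1.74e-19). Clec4a4 was at 98.4, 123 and 158 CPM against 3.89, 7.16 and 12.3 CPM (3.76 ± 0.13, adjusted p = 1.80e-21). All 3 were higher in the Prdm16-high cells of every mouse.

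Clec10a stood at 58.5, 79.0 and 114 CPM (lowest, median, highest) in Prdm16-high and 0, 0 and 26.9 CPM in Aire-high cells (4.57 ± 0.36, adjusted p = 1.80e-12), and Clec4b1 at 38.7 ± 5.40 and 3.72 ± 3.33 CPM (3.07 ± 0.25, adjusted p = 2.02e-12). Neither overlapped. The broad members were lower in the Prdm16-high cells. Clec2d was at 81.6, 109 and 128 CPM against 157, 185 and 250 CPM, without overlap (-1.05 ± 0.09, adjusted p = 3.06e-12). Clec16a was at 71.0 ± 12.9 against 124 ± 13.7 CPM, also without overlap (-1.02 ± 0.09, adjusted p = 1.11e-11), and Clec2i at 127 ± 22.8 against 149 ± 34.6 CPM with overlap (-0.45 ± 0.10, adjusted p = 0.000262). The Clec2i call was lost with cells thinned to 5000 UMIs (-0.32, adjusted p = 0.0539). Clec4a2 was not tested, with 195 UMIs in the Prdm16-high and 1 in the Aire-high samples.

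All 8 members tested between the 2 clusters passed, 5 higher and 3 lower, beside 68.4% of 7741 genes (34.7% higher and 33.7% lower), with medians of 3.42 over the members and 0.03 over all genes. A member that reached the expression filter only through the Prdm16-high samples had to differ. The count and the median of the members therefore describe the genes and support nothing further. After thinning to 5000 UMIs, 47.4% of 631 Prdm16-high cells held a Clec4a4 UMI (43.5 to 51.3, and 90.0% unthinned), against 2.33% of 301 Aire-high cells (1.13 to 4.72, and 12.7% unthinned). The median depths were 34544 and 26095 UMIs per cell. The CCR7 migratory DC list moved with the clusters and summed to 1462 to 1942 CPM in Prdm16-high and 5130 to 6609 CPM in Aire-high samples, with 9 of 10 markers above 10 CPM in either. The cDC1 list summed to 1710 to 2159 and 953 to 1316 CPM, the cDC2 list to 1717 to 2065 and 1152 to 1727 CPM, and the monocyte or macrophage list to 3.04 to 41.2 and 0 to 234 CPM. The part of these cell types in the result was not tested.

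**Figure D3:**
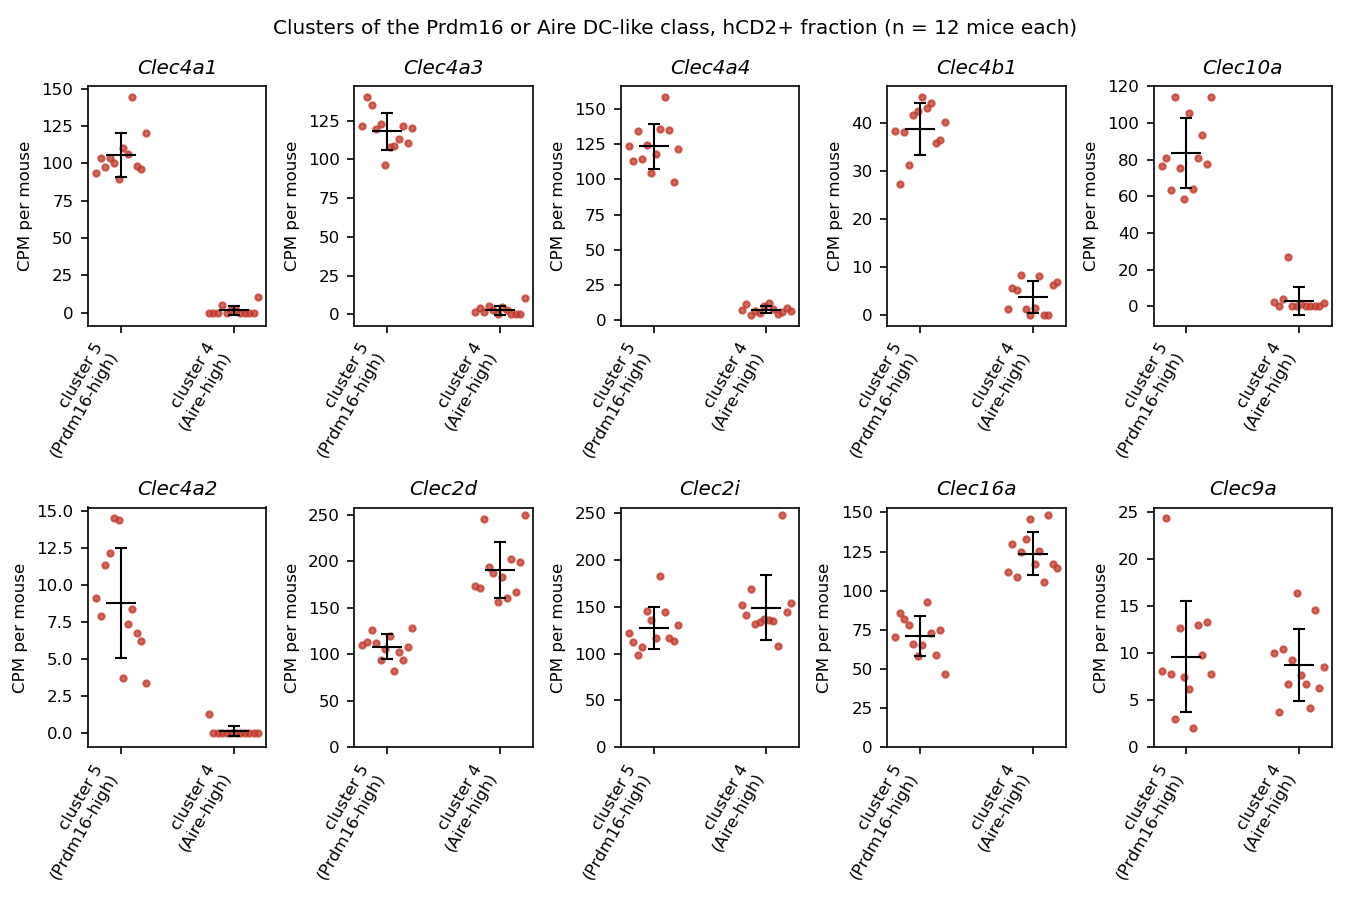
CPM per mouse of 10 members in the Prdm16-high cluster 5 and the Aire-high cluster 4 of the hCD2+ fraction, 12 mice each, with bars for the mean ± SD. Clec4a1, Clec4a3, Clec4a4, Clec4b1 and Clec10a are high in cluster 5, Clec2d and Clec16a are higher in cluster 4, and Clec9a shows no separation.

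Set against cDC2-like cells cluster by cluster, the direction of some genes depended on the cluster. Clec4a1 was higher in Prdm16-high cells (0.97 ± 0.14, adjusted p = 1.17e-06) and lower in Aire-high cells (-4.87 ± 0.42, adjusted p = 5.61e-11). Clec4a4 was higher in Prdm16-high cells (1.82 ± 0.15) and lower in Aire-high cells (-1.96 ± 0.24, adjusted p = 5.08e-08). Clec4a2 was lower in both, by -2.96 ± 0.28 in Prdm16-high cells, with 195 UMIs against 1 UMI in Aire-high cells. Prdm16-high cells had 8 members higher and 3 lower of 11 tested, beside 58.6% of all genes (28.6% higher and 30% lower), and Aire-high cells 3 higher and 4 lower of 7, beside 71% of all genes (35.5% in either direction).

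The hCD2+ and hCD2- fractions were then compared within classes. Each fraction is 1 library, so a difference between the fractions cannot be told apart from one between libraries. The level of the Gm38411 transcript was taken per fraction and not per class. In cDC1-like cells 0 of 5 members tested passed with edgeR, 0 with an unadjusted p under 0.05 and 0 with DESeq2, beside 0.595% of 7401 genes (0.176% higher and 0.419% lower). Clec9a was at 390, 435 and 487 CPM (lowest, median, highest of 6 mice) in the hCD2+ and at 323, 357 and 522 CPM (11 mice) in the hCD2- fraction (0.20 ± 0.11, adjusted p = 0.688). The medians were 0.18 over the members and 0.01 over all genes.

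In cDC2-like cells 3 of 14 members tested were lower in the hCD2+ fraction and 0 higher, beside 26% of 8808 genes (14.4% higher and 11.6% lower). Clec4a4 was at 17.9, 37.5 and 83.2 CPM in 10 hCD2+ samples and at 37.9, 69.9 and 87.2 CPM in 12 hCD2- samples (-0.88 ± 0.18, adjusted p = 0.000483), with overlapping ranges. Clec4a2 was at 24.4, 58.1 and 175 CPM against 95.4, 113 and 136 CPM (-0.64 ± 0.20, adjusted p = 0.0209), and Clec2g at 5.05 ± 3.23 against 10.8 ± 3.97 CPM (-1.23 ± 0.31, adjusted p = 0.00402). Cd209a (-0.48 ± 0.32, adjusted p = 0.28) and Clec10a (-0.07 ± 0.44, adjusted p = 0.943) did not pass. The medians were -0.08 over the members and 0.01 over all genes. Different clusters fill the class in the 2 fractions: cluster 15 gave 121 and cluster 19 gave 70 cells of the hCD2+ fraction, against 869 and 84 cells of the hCD2- fraction. The Prdm16 or Aire DC list summed to 14.9 to 1348 CPM in the hCD2+ and 4.35 to 24.8 CPM in the hCD2- samples.

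Within cluster 15 alone, Clec4a4 was the sole member of 14 past the threshold, beside 4.95% of 8731 genes (2.79% higher and 2.15% lower), and its 7 hCD2+ samples did not overlap the 12 hCD2- ones. They stood at 5.41, 18.9 and 42.0 CPM (lowest, median, highest) against 42.7, 71.4 and 95.7 CPM, a log2 fold change of -1.60 ± 0.26 (adjusted p = 0.000569). There the Prdm16 or Aire DC list summed to 4.0 to 155 CPM in the hCD2+ samples, with Aire and Pigr at 0, and to 5.21 to 26.7 CPM in the hCD2- samples. T cell markers summed to 14.7 to 87.9 and 36.5 to 89.3 CPM. In this cluster Clec4a2 (-0.44 ± 0.19, adjusted p = 0.183) and Clec2g (-1.17 ± 0.48, adjusted p = 0.172) did not pass.

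In CCR7 migratory DC-like cells 2 of 6 members tested were higher and 2 lower in the hCD2+ fraction, beside 32.9% of 8707 genes (16.8% higher and 16.1% lower), with medians of 0.25 over the members and 0.00 over all genes. Clec2i had a lowest, median and highest level of 104, 183 and 218 CPM in the hCD2+ and 92.3, 112 and 147 CPM in the hCD2- samples, with overlap (0.58 ± 0.09, higher in 11 of 12 mice paired by hashtag number, adjusted p = 1.26e-05). Clec2d was at 199, 238 and 299 CPM against 248, 289 and 315 CPM (-0.28 ± 0.06, adjusted p = 0.000377), Clec2g at 5.25 ± 2.36 against 9.71 ± 2.65 CPM (-0.79 ± 0.21, adjusted p = 0.00428), and Clec16a at 69.5 ± 20.2 against 51.9 ± 9.96 CPM (0.38 ± 0.12, adjusted p = 0.013). Cluster 11 gave 222 of the hCD2+ and 9 of the hCD2- cells, held Clec2i at 278 CPM ± 41.0 (SD, n = 8) and had a Prdm16 or Aire DC list of 1801 to 3167 CPM.

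Within cluster 9 alone Clec2i no longer passed and its sign turned (-0.27 ± 0.13, adjusted p = 0.212), and 1 of 4 members tested passed, beside 8.97% of 7215 genes (5.2% higher and 3.77% lower). It was Clec2d, lower by -0.27 ± 0.07 (adjusted p = 0.0202). Within cluster 8, with 10 and 5 mice, 3 of 5 members passed, beside 3.45% of 5457 genes (1.91% higher and 1.54% lower). Clec12a was at 24.5 CPM ± 10.4 in the hCD2+ samples and at 28.0, 88.7, 74.7, 67.8 and 46.8 CPM in the hCD2- samples (-1.37 ± 0.29, adjusted p = 0.011), Clec16a was higher (0.80 ± 0.19) and Clec2d lower (-0.56 ± 0.15). Clec2d was thus lower in the hCD2+ fraction over the class and in each of these clusters. In the droplets described for Clec9a above, Clec2d stood at 75.5 CPM in the hCD2+ and 91.7 CPM in the hCD2- library. Clec2i stood at 124 and 62.4 CPM, Clec16a at 44.8 and 25.6 CPM, and Clec2g at 2.45 and 3.94 CPM. These levels differed in the direction of the calls over the class, while Clec2i within cluster 9 went the other way. The part of the droplet levels in the result was not tested.

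**Figure D4:**
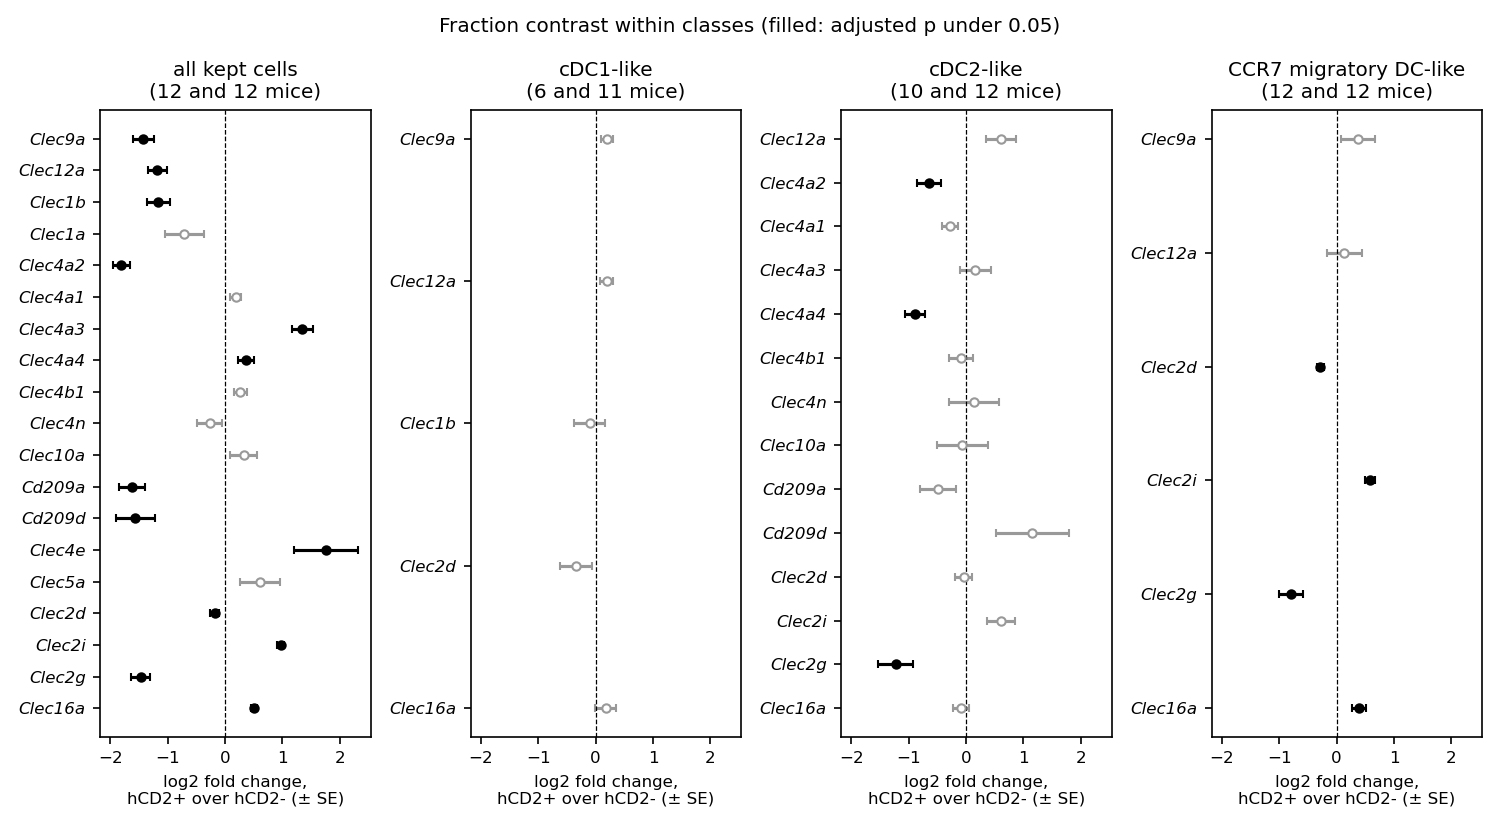
Log2 fold change of hCD2+ over hCD2- (x axis, ± SE) of each member tested (y axis) in all kept cells, cDC1-like, cDC2-like and CCR7 migratory DC-like cells, filled where the adjusted p is under 0.05. In cDC1-like cells no member is filled, in cDC2-like cells Clec4a2, Clec4a4 and Clec2g are lower, and in CCR7 migratory DC-like cells Clec2i and Clec16a are higher and Clec2d and Clec2g lower.

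In ILC3 or LTi-like cells 0 of 3 members tested passed with edgeR, beside 2.06% of 9654 genes (0.922% higher and 1.14% lower), 2 with an unadjusted p under 0.05 and 0 with DESeq2. Clec2i was at 155 ± 14 CPM in 12 hCD2+ and 122 ± 27.8 CPM in 7 hCD2- samples (0.30 ± 0.10, adjusted p = 0.143). With cluster 2 counted in, again 0 of 3 passed, beside 4.45% of 9883 genes (1.83% higher and 2.62% lower). Prdm16 or Aire DC-like cells could not be compared between the fractions, since no hCD2- mouse had 10 of them. The difference between the fraction effects of CCR7 migratory DC-like and cDC2-like cells was past the threshold for 1 of 15 members, Clec4a1 (-1.87 ± 0.60, adjusted p = 0.0282), beside 14.9% of 10192 genes (6.84% higher and 8.06% lower), with a median of -0.08 over the members and -0.01 over all genes. Its levels were 0.505 CPM ± 0.528 and 2.82 ± 3.11 in hCD2+ and hCD2- CCR7 migratory DC-like cells, and 54.5 ± 18.1 and 67.6 ± 11.0 in cDC2-like cells. With cells thinned to 5000 UMIs the difference was -0.04 (adjusted p = 0.958).

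Summed over all kept cells, 5 of 19 members tested were higher and 8 lower in the hCD2+ fraction, beside 67.8% of 13236 genes (33.9% in either direction), with medians of -0.18 over the members and -0.01 over all genes. In such sums fewer cells of a type and less RNA per cell cannot be told apart. Clec4a2 was at 9.40 CPM ± 3.32 in the hCD2+ and 32.3 ± 6.69 in the hCD2- samples (-1.81 ± 0.15, adjusted p = 1.14e-10), and Cd209a at 7.96 ± 3.54 against 24.5 ± 9.85 (-1.62 ± 0.23, adjusted p = 7.50e-07). Clec9a was at 17.5 ± 6.73 against 46.0 ± 10.8 CPM (-1.43 ± 0.18, adjusted p = 2.10e-07). Clec4a3, at 25.1 ± 6.30 against 9.62 ± 3.78 CPM (1.35 ± 0.18), Clec4e (1.76 ± 0.56) and Clec2i (0.97 ± 0.06) were higher. With the mouse as a block Clec10a was higher too (0.47, adjusted p = 0.0327), against 0.33 ± 0.24 without it (adjusted p = 0.225), and with thinned cells its sign turned (-0.19, adjusted p = 0.486). Prdm16 or Aire DC-like cells made up 13.8% of kept cells in the hCD2+ and 0.315% in the hCD2- fraction, and cDC2-like cells 2.69% and 20.01%.

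A few members marked cells outside the myeloid classes or none at all. Clec3b (tetranectin), a secreted plasminogen-binding protein of connective tissue, had 460 of its 535 kept UMIs, 86.0%, in 8 stromal cell-like cells of the hCD2+ fraction, at a pooled 1553 CPM. Clec11a, a secreted growth factor of bone marrow, stood at a pooled 50.6 CPM (15 UMIs) in the same 8 cells. Among classes with at least 3 mice it reached 5.48 CPM ± 1.55 in pDC-like cells, and Clec4g, known from sinusoidal endothelium, 4.62 ± 4.41 in the same cells. In all, 10 of the 30 members passed the expression filter in no comparison: Cd209b, Cd209c, Cd209e, Cd209f, Clec11a, Clec2f, Clec2l, Clec3b, Clec4b2 and Clec4g.

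Over 14 group means and 9506 genes, the genes whose log2(CPM + 1) was most like that of Clec9a were Gm43914 (Pearson r = 0.98), Txndc15 (0.95) and Clec1b (0.94). For Clec4a2 they were Sirpb1a (0.95), Gm9733 (0.95) and Sirpb1b (0.94), for Clec4a4 Cadm3 (0.98), Clec4b1 (0.96) and Sucnr1 (0.96), for Cd209a Gm16553 (0.88), Trappc5 (0.87) and Scn3a (0.87), and for Clec10a Gm34680 (0.98), Mgl2 (0.95) and Top1 (0.91). The points share mice and libraries, and Mgl2 shares transcript-end sequence with Clec10a, so these are descriptions.

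The genes that act with these receptors were described from 4 lists. Of 12 signalling adaptors and effectors tested in cDC1-like against cDC2-like cells, 2 were higher and 8 lower, beside 29.4% and 28.8% of all genes, among them Malt1 (-2.53 ± 0.14), Fcer1g, which encodes FcRγ (-2.37 ± 0.15), and Syk (-1.85 ± 0.10), while Vav3 was higher (1.27 ± 0.09). Between Prdm16-high and Aire-high cells 5 of 11 were higher and 1 lower, beside 34.7% and 33.7% of all genes. Plcg2 was higher (1.33 ± 0.10) and Tyrobp, which encodes DAP12, lower (-1.49 ± 0.09). Of the 5 inhibitory phosphatases and regulators 4 were higher in Prdm16-high cells in the same fit, with Ptpn6 (SHP-1) at 1.86 ± 0.09 and Inpp5d (SHIP1) at 1.08 ± 0.11, and Cblb was lower (-3.83 ± 0.11).

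Among the lectin receptors with other names, 2 of 6 tested were higher and 4 lower in Prdm16-high than in Aire-high cells, beside the same 34.7% and 33.7% of all genes. Mgl2, the neighbour and relative of Clec10a, was higher (4.13 ± 0.32) and so was Cd69 (2.45 ± 0.18), while Cd302 (-4.66 ± 0.19), Mrc2 (-2.78 ± 0.15) and Colec12 (-2.65 ± 0.30) were lower. Of the NKR-P1 receptors of the Clec2 ligands, Klrb1b, the receptor of Clec2d, was the sole gene tested and was higher in Prdm16-high cells (4.64 ± 0.22). In cDC2-like cells Klrb1b was higher in the hCD2+ than in the hCD2- fraction (3.94 ± 0.45, adjusted p = 2.57e-07), and 5 of the 12 adaptors were lower there, beside 11.6% of all genes, Card9 (-0.72 ± 0.16), Syk (-0.52 ± 0.12) and Malt1 (-0.47 ± 0.15) among them. As given above, the Prdm16 or Aire DC list (14.9 to 1348 against 4.35 to 24.8 CPM) and the shares of clusters 15 and 19 also differed between these samples, and their part in the result was not tested.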

How the data were processed

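UMI counts per gene and droplet were made and deposited by the authors with Cell Ranger 8.0.1 on mm10, per the file headers and the submitters' processing notes, and the deposited matrices hold every droplet. The authors also deposited the hashtag called for each cell, and the feature and barcode names of the matrices.

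A cell was kept if it had 1 hashtag, 500 genes or more, and a mitochondrial share of UMIs no higher than 10%. Cells with several hashtags were left out as doublets. Cells were clustered with scanpy 1.11.5 (2000 variable genes, 30 components, 15 neighbours, resolution 1.0) without the 38 genes. Clusters were named from 17 marker lists, by a naming rule set after the clusters were seen, and clusters with a low UMI count, under 3 elevated markers or leading genes or T cell markers of another list stayed unnamed. UMIs were summed per mouse, fraction and class where a mouse had at least 10 cells, and tested with edgeR 4.0.16 (quasi-likelihood test, TMM, filterByExpr, Benjamini-Hochberg adjustment over all genes tested) under R 4.3.3. The main fits held no term for the mouse, although mice gave samples to both groups of a comparison, so paired samples were treated as independent. The mouse as a block and DESeq2 1.42.0 were alternatives. The fit was tested on simulated counts with known changes.

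Equal-numbered hashtags of both fractions were taken as the same mouse, which the sample titles do not state. Of 12 equal-numbered pairs 9 correlated over 0.1 in their deviations (lowest 0.0163, highest 0.413), and 6 were best matches. Counts of mice and the mouse block across the fractions rest on this pairing. Mice of a fraction share a library, so p-values measure the spread between mice of these libraries. Intervals and floors of 3 counts cover counting error only.

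Named genes are the members, with full statistics for Clec9a, Clec4a2, Clec4a4, Cd209a, Clec10a and the called members with the largest fold change, at most 5 per direction, plus at most 3 genes per direction of 4 pathway lists and 3 like genes per marker. The members and lists were chosen with earlier results of these data known. Clusters taken singly, the alternative with cluster 2 and the left-out mice were alternatives chosen after seeing the data.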

Additional observations from a re-analysis of the deposited data

Results flagged for a closer look

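Of 29 sets of 4 to 10 mice examined, 1 per member and group, 6 held a mouse far from the others, and chance alone gives about 1 in 20. In cDC2-like cells of the hCD2+ fraction Cd209a stood at 114 CPM in mouse 1 (20 cells) and at 1.75 to 61.7 CPM in the other 9 mice. Cd209d stood at 119 CPM in mouse 10 (11 cells) and at 0 to 62.1 CPM in the others. Clec4a2 stood at 175 CPM in mouse 8 (17 cells) against 24.4 to 102 CPM, and Clec4a4 at 83.2 CPM in mouse 2 (11 cells) against 17.9 to 49.7 CPM. In pDC-like cells of the hCD2- fraction Clec10a was low in mouse 5, at 67.9 CPM (14 cells), and the other 4 mice at 134 to 147 CPM. In cDC1-like cells of the hCD2+ fraction Clec1b was low in mouse 6, at 5.26 CPM (10 cells), against 20.2 to 25.5 CPM. Each of these samples rests on 20 cells or fewer.

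The difference between the classes in the change of Clec4a1 from the hCD2- to the hCD2+ library (log2 fold change, CCR7 migratory DC-like minus cDC2-like cells) was -1.87 (SE 0.60, edgeR adjusted p = 0.0282), but -0.04 (adjusted p = 0.958) with cells thinned to 5000 UMIs. In data outside the comparisons, 68 UMIs of Cd209f lay in 1 cell with several hashtags, and Clec3b stood at a pooled 1553 CPM in 8 stromal cell-like cells.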

How the results depend on the processing

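Of 990 values of single genes under the alternatives, 941 kept their direction and their side of the threshold, 27 no longer passed it, 2 passed it newly and 20 changed sign, 17 of these called in neither fit and 2 in both. Counts of members in this section are given without the share of all genes past the threshold in the same fits. They describe the processing and are no result about the members. Without the low-count filter the counts of members past the threshold were 21 for cDC1-like and 22 for CCR7 migratory DC-like against cDC2-like cells. They were 18 and 22 for Prdm16 or Aire DC-like against CCR7 migratory DC-like and ILC3 or LTi-like cells, 17 between clusters 5 and 4, and 8 between the fractions of CCR7 migratory DC-like cells. With cells thinned to 5000 UMIs, against cDC2-like cells the counts were 4 for cDC1-like, 6 for CCR7 migratory DC-like, 8 for pDC-like, 5 for Prdm16 or Aire DC-like and 1 for monocyte or macrophage-like cells. They were 0 between the cDC2-like clusters, 2 between those of CCR7 migratory DC-like cells, 5 between clusters 5 and 4, and 8 in all kept cells. Fewer genes were tested after thinning in each of these.

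With the mouse as a replicate block, 1 member passed between the cDC2-like clusters, against 2 without it, since Clec2d did not (0.73, adjusted p = 0.249). The counts were 8 against 9 for monocyte or macrophage-like and 12 against 11 for CCR7 migratory DC-like against cDC2-like cells, and 16 against 13 in all kept cells. In the other comparisons the block left the count as it was. Signs changed under the block for Clec9a between the cDC2-like clusters (0.30), Clec10a between the cDC2-like fractions (0.0096) and Clec9a in the difference of fraction effects (0.0143).

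Cluster 4 alone against cDC2-like cells gave 7 members, with Clec4a1 at -4.87 and Clec4a4 at -1.96, both called with the opposite sign in the whole class. Cluster 15 alone gave 1 member between the fractions, with Cd209a at 0.27 and Clec10a at 0.77. Cluster 9 alone gave 1, with Clec2i at -0.27, and cluster 8 alone turned Clec9a to -0.73. Thinning turned Clec10a to -0.14 between the cDC2-like clusters and to -0.19 in all kept cells, and Clec4a2 to 0.89 in the difference of fraction effects. At least 20 cells per mouse turned Clec10a to 0.22 between the cDC2-like fractions and Clec9a to 0.14 in that difference, and a resolution of 1.5 turned Clec10a to -0.0574 in it.

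Leaving out a mouse gave 5 to 6 members between the CCR7 migratory DC-like clusters, 0 (without mouse 12) to 2 between the cDC2-like clusters, 7 to 10 for monocyte or macrophage-like and 14 for pDC-like cells. Over those fits Cd209a ranged from -0.755 to 0.0977 in pDC-like cells, Clec4a2 from -0.19 to 0.81 and Clec10a from -0.79 to 0.14 in monocyte or macrophage-like cells, and Clec9a from -1.93 to 0.50 and Clec10a from -0.18 to 0.89 between the cDC2-like clusters. The cause of these changes was not tested. Under a stricter cell filter (1000 genes, 5% mitochondrial UMIs) 0 of 90 levels of at least 10 CPM moved by over 1 SD. The largest ratio between a level under the 2 filters was 1.78. Under the stricter filter 78 levels were at 10 CPM or more, counted only in groups that still had at least 3 mice. Classes with few cells per mouse limit all of these values.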
